A study of Homo sapiens with 15 samples.

Results

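The 10 genes described here encode subunits of the transcription factor NF-κB and genes that it is known to induce. They are 4 of the Rel family subunits (NFKB1, NFKB2, RELA and RELB), the inhibitors NFKBIA and TNFAIP3, the survival gene BIRC3, the chemokine genes CXCL8 and CXCL1, and the adhesion gene ICAM1. They were taken by name from the 47634 genes counted in each library, and all 10 are in the files. No cut-off on a measured value was used, but earlier results of these data were known when they were chosen. RNA was sequenced from the 3′ end (QuantSeq) in IGROV-CP20 cells, a human ovarian cancer line that is resistant to cisplatin, to ask how 3 approved drugs change the transcriptional response to cisplatin. Each of 5 conditions had 3 libraries, which the labels call biological replicates. Untreated cells received no drug. The other 4 conditions all received 50 µM cisplatin for 24 h. In 1 of them it was given alone, and in the others it followed 24 h of pretreatment at 10 µM with Amphotericin B, Telmisartan or Tranilast. These combinations are named by their drug below. No condition received one of these drugs without cisplatin, and all libraries come from 1 cell line.

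NF-κB is a dimer of Rel family proteins that is held inactive in the cytoplasm by IκB proteins. In the canonical route the IKK kinases mark IκBα, the product of NFKBIA, for destruction, and dimers of RELA and p50 (made from NFKB1) enter the nucleus. In the non-canonical route the kinase NIK (MAP3K14) leads to processing of NFKB2 and to dimers that contain RELB. Among the induced genes are inhibitors that end the response (NFKBIA, TNFAIP3), genes that oppose cell death (BIRC3) and secreted or surface proteins that attract and bind leukocytes (CXCL8, CXCL1, ICAM1). Ovarian cancer cells in which the pathway is active are known to secrete such chemokines.

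The RefSeq promoter table held 13 windows for 9 of the genes (RELB had no entry), and the 250 bases before each annotated start were searched on both strands for the κB consensus, the sequence that NF-κB dimers bind. The strict form of this 10-base motif reads 3 G, a purine, any base, A or T, 2 pyrimidines and 2 C, and the relaxed form also allows A or T at the first base. A strict match was present in 7 of the 13 windows (6 of the 9 genes) and a match of either form in 10 windows (8 genes), whereas 5.21% of all 35116 windows of the same length held a strict match and 11.6% held either form. A match describes letters only, and adjoining matches on the opposite strands overlap. The windows of CXCL1, NFKBIA, BIRC3 and CXCL8 are shown because these targets span the detected range, from the gene with the widest differences between conditions to one that was almost absent. They are written 5′ to 3′ on the strand of the gene, from RefSeq on GRCh38.p14, with every base of a match of either form in capitals.
CXCL1 (chr4:73869143-73869392, plus strand): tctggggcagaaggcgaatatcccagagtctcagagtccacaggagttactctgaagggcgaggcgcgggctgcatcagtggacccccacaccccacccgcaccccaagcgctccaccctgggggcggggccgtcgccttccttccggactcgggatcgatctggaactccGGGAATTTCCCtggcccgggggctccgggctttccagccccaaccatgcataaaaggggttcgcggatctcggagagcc
NFKBIA (chr14:35404750-35404999, minus strand): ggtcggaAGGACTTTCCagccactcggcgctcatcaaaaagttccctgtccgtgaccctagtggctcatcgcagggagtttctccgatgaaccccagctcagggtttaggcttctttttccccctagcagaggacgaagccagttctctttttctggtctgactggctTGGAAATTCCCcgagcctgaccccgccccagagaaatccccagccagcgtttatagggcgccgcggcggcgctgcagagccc
BIRC3 (chr11:102317234-102317483, plus strand): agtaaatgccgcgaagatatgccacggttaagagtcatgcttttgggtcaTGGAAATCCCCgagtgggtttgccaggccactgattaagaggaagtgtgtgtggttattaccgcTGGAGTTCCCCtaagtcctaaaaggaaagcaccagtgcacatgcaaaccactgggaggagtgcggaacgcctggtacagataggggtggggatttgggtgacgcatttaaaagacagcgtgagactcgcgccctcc
CXCL8 (chr4:73740319-73740568, plus strand): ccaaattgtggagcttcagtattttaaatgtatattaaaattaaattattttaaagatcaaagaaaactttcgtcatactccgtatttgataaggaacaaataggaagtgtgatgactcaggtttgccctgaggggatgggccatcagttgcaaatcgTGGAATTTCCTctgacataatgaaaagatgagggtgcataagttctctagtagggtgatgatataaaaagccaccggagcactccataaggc
In CXCL1, 2 strict matches on opposite strands overlapped by all but 1 base and lay 79 to 69 bases before the start. The NFKBIA window held a relaxed match 243 bases and an overlapping pair 82 bases before the start, the BIRC3 window held overlapping pairs 200 and 136 bases before it, and the CXCL8 window held 2 relaxed matches that overlap, the first of them 92 bases before it. For TNFAIP3 there were 3 matches within 67 bases of the start, and for ICAM1 there was 1 relaxed match 187 bases before it. Neither of the RELA windows held a match, which says only that these letters were not in those 250 bases.

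**Figure D1:**
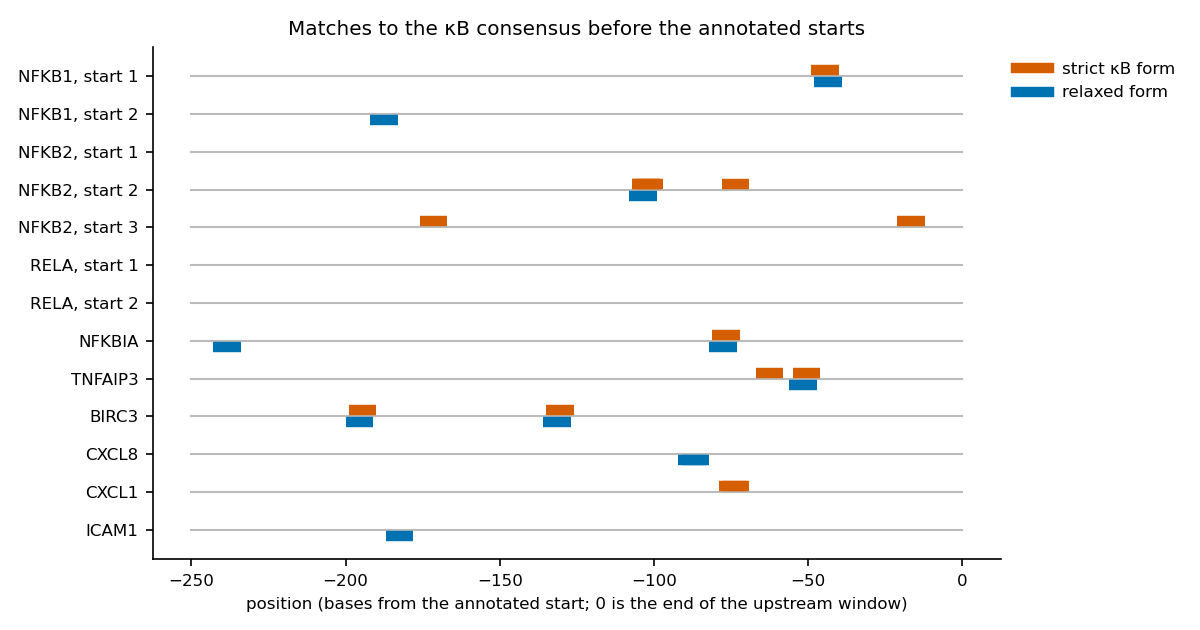
Positions of κB consensus matches in bases before the annotated start (x axis) for each of the 13 windows (rows). Orange bars are strict and blue bars relaxed matches. Matches appear in 10 of the 13 windows and in neither RELA window.

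Total counts ranged from 1510620 to 3517041 per library, and the Amphotericin B libraries were the smallest (at most 1872639). The share of counts on the 2 mitochondrial ribosomal RNA genes differed between libraries and moved with several of the genes described here. It was 1.79% to 2.20% in untreated cells, 2.10% to 2.53% with Tranilast and 12.3% to 14.8% with Amphotericin B, but 13.7%, 5.61% and 3.41% in cisplatin libraries 1, 2 and 3, and 10.8%, 12.9% and 3.61% in Telmisartan libraries 1, 2 and 3. Replicates were split in the same way. Cisplatin library 1 differed from libraries 2 and 3, and Telmisartan library 3 from libraries 1 and 2, by a chi-square per gene of 26.4 to 44.1, against 2.24 to 8.07 for all other pairs of replicates. This measure does not say which side of a split is unusual. As alternatives, the 3 libraries of these conditions with a share of 10.8% or more (cisplatin library 1 and Telmisartan libraries 1 and 2, called the 3 high-share libraries below) were left out together, or the share was used as a covariate. The first alternative kept only library 3 of Telmisartan, but all 3 Amphotericin B libraries with their share of 12.3% to 14.8%. The shares of all cisplatin, Telmisartan and Amphotericin B libraries lay above those of all untreated and all Tranilast libraries. Treatment and share cannot be told apart in comparisons across that gap, and the covariate cannot part them there. The part that this share has in a result was not tested further. KRT8, KRT18 and EPCAM, markers of epithelial cells, were detected in all conditions, while the ovarian carcinoma markers PAX8, MUC16 and WT1 were at or near 0. The endothelial markers CDH5 and VWF and the T cell marker CD3E had 0 counts. The leukocyte marker PTPRC was detected, and it made up nearly all of the summed leukocyte list, which ran from 65.3 to 77.1 CPM (counts scaled to a common library size) in untreated cells and from 4.77 to 22.8 CPM in the other conditions. The fibroblast list ran from 7.89 to 9.50 CPM in untreated cells and from 15.3 to 40.6 CPM elsewhere. Most of its counts were on COL1A1 (664 over all libraries), against 57 on COL1A2, 18 on DCN and 13 on LUM. The leukocyte list was thus highest in untreated cells, as CXCL1 was, and the fibroblast list was lowest there. The part of either list in the difference of CXCL1 was not tested.

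Of the 10 genes, 7 had enough counts to pass edgeR's filter, with 11113 genes tested in all. TNFAIP3, CXCL8 and ICAM1 did not pass. A gene is called different where the p of edgeR's quasi-likelihood test, adjusted over all genes tested in that comparison, was under 0.05. Levels are given in CPM scaled by the TMM factors, and differences as log2 fold changes. The 10 comparisons between conditions share libraries, and every comparison with cisplatin alone uses the same 3 cisplatin libraries.

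**Figure D2:**
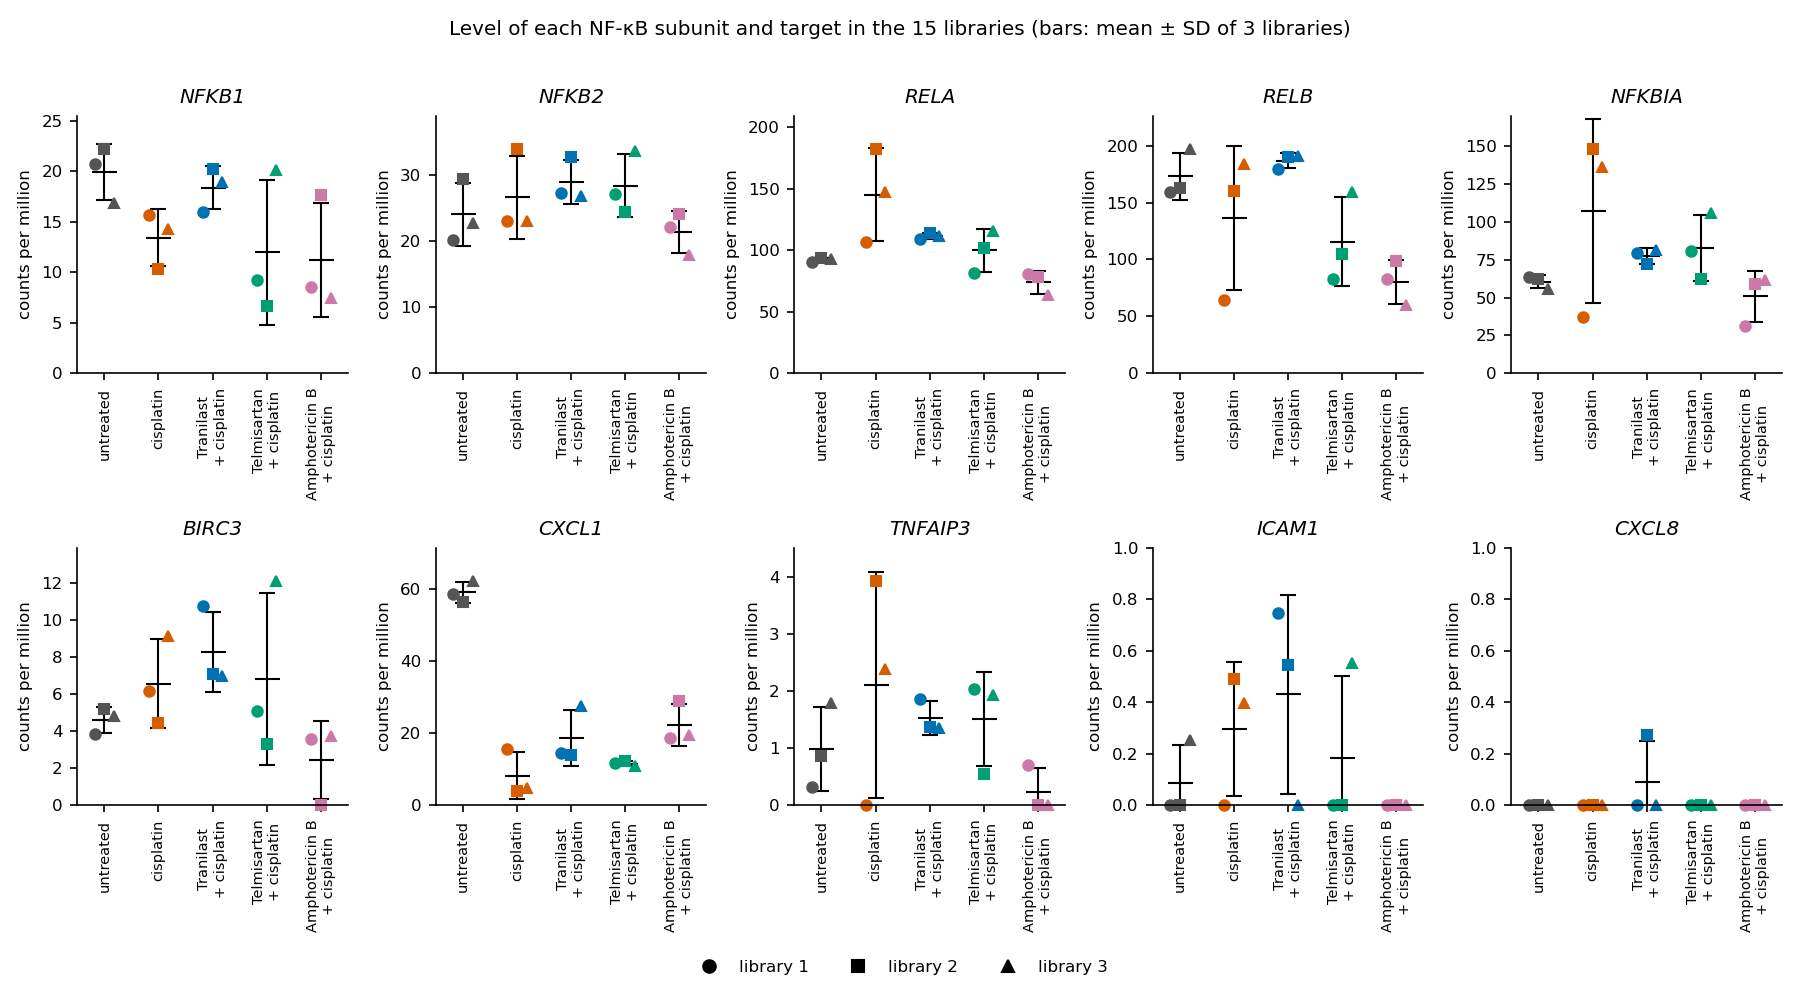
CPM (y axis, linear) of each of the 10 genes in every library, by condition (x axis). Symbols mark libraries 1 to 3 and bars the mean ± SD. CXCL1 is highest in the 3 untreated libraries, cisplatin library 1 is low for RELB and NFKBIA, and CXCL8 and ICAM1 stay under 1 CPM in every library.

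RELA encodes p65, the transactivating subunit of the canonical dimer. Its level was 90.2, 93.8 and 92.7 CPM in the untreated libraries and 106, 182 and 147 CPM after cisplatin alone. Tranilast libraries had 109, 114 and 111, Telmisartan libraries 81.6, 102 and 116, and Amphotericin B libraries 80.4, 78.6 and 63.4 CPM. All 3 cisplatin libraries lay above all untreated and all Amphotericin B libraries. RELA rose with cisplatin by 0.66 on the log2 scale (SE 0.19, adjusted p = 0.0107, edgeR), from 92.2 ± 1.83 to 145 ± 37.8 CPM (SD, n = 3). It was lower with Amphotericin B than with cisplatin alone (log2 fold change -0.97, SE 0.20, adjusted p = 0.00726). Cisplatin library 2 decided both calls. Without it the difference from untreated cells was 0.46 (adjusted p = 0.0765) and that of Amphotericin B from cisplatin -0.75 (adjusted p = 0.0576). With scaling by library size alone the rise with cisplatin was 0.33 (adjusted p = 0.357). With the mitochondrial share as a covariate both calls held, at 1.01 (adjusted p = 0.000236) and -0.72 (adjusted p = 0.0248). The shares of the cisplatin libraries did not overlap those of untreated or Tranilast libraries. In comparisons of cisplatin with these conditions the covariate cannot part the share from the treatment. Tranilast libraries differed from cisplatin alone by -0.38 (95% CI -0.79 to 0.018, adjusted p = 0.154) and by 0.036 with scaling by library size alone, but without the 3 high-share libraries this difference passed the threshold at -0.53 (adjusted p = 0.00478), and with the covariate at -0.70 (adjusted p = 0.0124). Without the 3 libraries, with 1 Telmisartan library left, RELA differed by 0.64 between Telmisartan and Amphotericin B, higher with Telmisartan. Telmisartan differed from cisplatin alone by -0.54 (adjusted p = 0.366, edgeR), and without cisplatin library 1 by -0.68, which passed the threshold. From highest to lowest the conditions ran cisplatin, Tranilast, Telmisartan, untreated and Amphotericin B, and no neighbours in this order passed the threshold. RELA overlaps the opposite-strand gene AP001362.2, which was not analysed here, and the use of the strand in counting is not given in the sources used here.

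RELB, the partner of NFKB2 in the non-canonical dimer, had 159, 163 and 197 CPM in the untreated libraries and 64.4, 160 and 183 CPM after cisplatin alone. Tranilast libraries held 179, 190 and 191, Telmisartan libraries 82.7, 105 and 159, and Amphotericin B libraries 82.5, 98.7 and 59.6 CPM. The Amphotericin B libraries lay below all untreated and all Tranilast libraries. RELB was lower with Amphotericin B than in untreated cells (log2 fold change -1.11, SE 0.31, adjusted p = 0.00822, edgeR) and the Tranilast libraries exceeded those of Amphotericin B (1.22, SE 0.31, adjusted p = 0.00626). Without Amphotericin B library 3 the first of these calls was lost (RELB -0.90). Low RELB went with a high share of mitochondrial ribosomal RNA also within conditions, and the 6 libraries at or below 105 CPM were those with a share of 10.8% or more. With that share as a covariate both differences changed sign and lost their calls, at 0.46 (adjusted p = 0.376) and -0.27 (adjusted p = 0.813). The shares of the compared conditions did not overlap, so the covariate cannot part the share from the drug here. Cisplatin alone differed from untreated cells by -0.34 (95% CI -0.96 to 0.28, adjusted p = 0.362), and without the 3 high-share libraries by -0.031 (adjusted p = 0.885). Amphotericin B against cisplatin alone gave -0.77 (adjusted p = 0.100). Without the 3 high-share libraries it gave -1.08, and Telmisartan, with 1 library left, differed from Amphotericin B by 0.98. In that setting only the Amphotericin B libraries have a share of 10.8% or more, so that share and drug cannot be told apart. Without Telmisartan library 3, RELB was lower with Telmisartan than in untreated cells (-0.89, adjusted p = 0.0269). The order was Tranilast, untreated, cisplatin, Telmisartan and Amphotericin B, and no neighbours in it passed the threshold.

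NFKB1 and NFKB2 encode the precursors of p50 and p52, the DNA-binding subunits that lack a transactivation domain. NFKB1 was at 16.8 to 22.2 CPM in the untreated libraries and 10.3 to 15.7 CPM after cisplatin alone. Tranilast libraries held 16 to 20.2, Telmisartan libraries 6.63 to 20.1 and Amphotericin B libraries 7.45 to 17.6 CPM. The untreated and cisplatin libraries did not overlap, but their log2 difference of -0.56 did not pass (95% CI -1.29 to 0.16, adjusted p = 0.193, edgeR). Without the 3 high-share libraries it did, at -0.69 (adjusted p = 0.0380), as did Amphotericin B against untreated cells (-0.84, adjusted p = 0.0149) and Tranilast against Amphotericin B (0.74, adjusted p = 0.0341). Without Telmisartan library 3, NFKB1 was lower with Telmisartan than in untreated cells (-1.32, adjusted p = 0.00615). NFKB2 stayed between 17.9 and 33.8 CPM in all 15 libraries, the narrowest range of condition means among the tested genes (0.43 on the log2 scale). None of its 10 comparisons passed, although with library size only Tranilast exceeded Amphotericin B (1.10, adjusted p = 0.00941), and its difference with cisplatin was 0.14 (95% CI -0.34 to 0.63).

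NFKBIA encodes IκBα and is a target of the dimers that it retains. Untreated libraries held 63.4, 62.4 and 55.5 CPM. With cisplatin alone they held 37.5, 148 and 137 CPM, so that 2 libraries lay above and library 1 below every untreated library. Tranilast libraries had 79.3, 72 and 81.5, Telmisartan libraries 80.6, 62.4 and 106, and Amphotericin B libraries 31.3, 59.4 and 61.9 CPM. Neither cisplatin against untreated cells (log2 fold change 0.84, SE 0.35, adjusted p = 0.0568, edgeR) nor Amphotericin B against cisplatin alone (-1.09, SE 0.36, adjusted p = 0.0541) passed the threshold. Both lie close to it. The first passed with DESeq2 (0.88, adjusted p = 0.0419), the likelihood ratio test (0.83, adjusted p = 0.0444), RLE factors (0.88, adjusted p = 0.0418) and no filter (0.79, adjusted p = 0.00609), and the second with the likelihood ratio test (-1.08, adjusted p = 0.0252) and no filter (-1.15, adjusted p = 0.000228). Without cisplatin library 1 the values were 1.22 (adjusted p = 0.000235) and -1.45 (adjusted p = 0.000272), and Tranilast against cisplatin alone, -0.48 with all libraries (adjusted p = 0.328), was -0.86 (adjusted p = 0.0102). Without cisplatin library 2 none of these passed, and cisplatin against untreated cells was 0.53 (adjusted p = 0.279). With the mitochondrial share as a covariate the cisplatin difference was 1.70 (adjusted p = 2.38e-05), and that of Amphotericin B from cisplatin -0.32 (adjusted p = 0.563). With this covariate NFKBIA also passed for Tranilast against cisplatin (-1.25), for Amphotericin B (1.39) and Telmisartan (1.60) against untreated cells, and for Tranilast against Telmisartan (-1.14). Without the covariate, Amphotericin B differed from untreated cells by -0.25 (adjusted p = 0.604, edgeR), so the sign changed. In each comparison that passed with the covariate the shares did not overlap, so it cannot part the share from the treatment. Without the 3 high-share libraries, with 1 Telmisartan library left, Telmisartan differed from untreated cells by 0.81 and from Amphotericin B by 1.06. In the same setting Tranilast differed from Amphotericin B by 0.61. In order of level the conditions ran cisplatin, Telmisartan, Tranilast, untreated and Amphotericin B, and no neighbours passed the threshold.

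**Figure D3:**
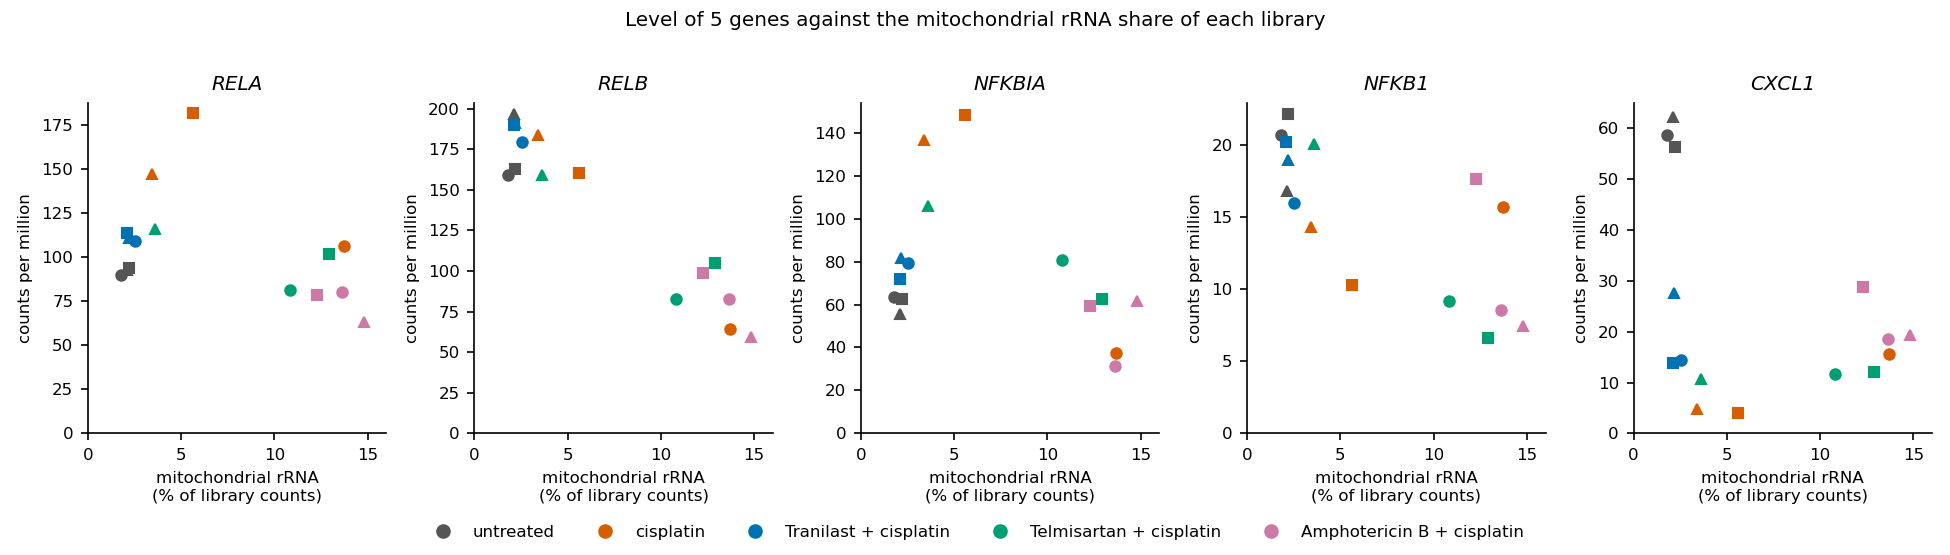
CPM of 5 genes (y axis) against the percentage of a library's counts on mitochondrial ribosomal RNA (x axis), 1 point per library, coloured by condition and with the same symbols for libraries 1 to 3 as in the plot of levels. RELB is at most 105 CPM in the 6 libraries with a share of 10.8% or more, whereas CXCL1 is high only in the untreated libraries.

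TNFAIP3 encodes A20, a ubiquitin-editing enzyme that ends NF-κB signalling. It had 1, 3 and 7 counts in the untreated libraries and 0, 8 and 6 after cisplatin alone. Tranilast libraries held 5, 5 and 6 counts, Telmisartan libraries 4, 1 and 7, and Amphotericin B libraries 1, 0 and 0. The Amphotericin B libraries were the lowest as a group, and the gene was too rare to be tested. In the alternative fit without a filter, Amphotericin B against cisplatin alone had an adjusted p of 0.149 for TNFAIP3. An antisense gene at the same locus, AL357060.1, held 27 counts over all libraries against 54 on TNFAIP3, and the assignment of reads between them is uncertain.

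BIRC3 encodes cIAP2, a ubiquitin ligase that opposes cell death. Counts were low, from 0 to 44 per library. The level was 3.83, 5.18 and 4.84 CPM in the untreated libraries and 6.16, 4.41 and 9.13 CPM after cisplatin alone. Tranilast libraries held 10.8, 7.09 and 7.0, Telmisartan libraries 5.10, 3.31 and 12.1, and Amphotericin B libraries 3.56, 0 and 3.73 CPM. The Amphotericin B libraries lay below all Tranilast libraries and also below all untreated and cisplatin libraries. BIRC3 was at a higher level in Tranilast than in Amphotericin B libraries (log2 fold change 1.70, SE 0.62, adjusted p = 0.0398, edgeR), and no other comparison of the 10 passed in this fit. Telmisartan against untreated cells passed with the mitochondrial share as a covariate (1.55, adjusted p = 0.0339). Tranilast against untreated cells passed with only their 6 libraries (0.82, adjusted p = 0.0271). Without the 3 high-share libraries only Telmisartan library 3 was left, the one at 12.1 CPM. Telmisartan then differed from untreated cells by 1.37 and from Amphotericin B by 2.25. The call of Tranilast against Amphotericin B was lost when any 1 of the 6 libraries compared was left out (log2 fold changes from 1.17 to 2.07 over all libraries left out in turn) and with the mitochondrial share as a covariate (0.31, adjusted p = 0.931). With RLE factors in edgeR this call was also lost (1.58, adjusted p = 0.0546). In both comparisons given with the covariate the shares did not overlap, so share and treatment cannot be told apart. The condition means ran Tranilast, Telmisartan, cisplatin, untreated and Amphotericin B, and no neighbours passed the threshold.

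CXCL1 encodes a chemokine that attracts neutrophils. It had the widest range of condition means among the tested genes, 2.99 on the log2 scale. Untreated libraries held 58.7, 56.4 and 62.1 CPM, cisplatin libraries 15.7, 3.92 and 4.77, Tranilast libraries 14.5, 13.9 and 27.5, Telmisartan libraries 11.7, 12.2 and 10.7, and Amphotericin B libraries 18.5, 28.9 and 19.4 CPM. Every untreated library was thus above each of the 12 that had received cisplatin. CXCL1 fell with cisplatin by 2.91 on the log2 scale (95% CI -3.71 to -2.12, adjusted p = 2.13e-05, edgeR), from 59.1 ± 2.88 to 8.12 ± 6.56 CPM (SD, n = 3), which is 7.53-fold lower.

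In each drug combination CXCL1 was lower than in untreated cells, with a log2 fold change of -1.64 with Tranilast (SE 0.33, adjusted p = 0.00428, edgeR), -1.41 with Amphotericin B (SE 0.35, adjusted p = 0.00405) and -2.36 with Telmisartan (SE 0.36, adjusted p = 0.000168). These 3 calls and that of cisplatin alone held in each of the 26 alternatives tried, including the mitochondrial share as a covariate. Only the Tranilast shares overlapped those of untreated cells, so elsewhere the covariate cannot part the share from the treatment. Against cisplatin alone CXCL1 was higher with Tranilast (1.27, SE 0.39, adjusted p = 0.0275) and with Amphotericin B (1.5, SE 0.42, adjusted p = 0.0270), while Telmisartan gave 0.55 (95% CI -0.33 to 1.43, adjusted p = 0.697). Both calls were lost without cisplatin library 2 (CXCL1 0.95, adjusted p = 0.144, with Tranilast and 1.21, adjusted p = 0.132, with Amphotericin B), and also without cisplatin library 3. Without Tranilast library 3, the call of Tranilast was lost (0.86), and that of Amphotericin B was lost without its library 2 or 3 and with the mitochondrial share as a covariate (1.13, adjusted p = 0.0913). Cisplatin library 1, at 15.7 CPM, overlapped the Tranilast libraries. Without that library Telmisartan against cisplatin alone also passed, at 1.41, beside 2.12 with Tranilast and 2.37 with Amphotericin B. Without the 3 high-share libraries the CXCL1 differences from cisplatin alone were 2.14 with Tranilast and 2.35 with Amphotericin B. With 1 Telmisartan library left there, Telmisartan differed from Amphotericin B by -1.04. From highest to lowest the conditions ran untreated, Amphotericin B, Tranilast, Telmisartan and cisplatin. Only the first step of this order, from untreated cells to Amphotericin B, was a difference between neighbours that passed the threshold. CXCL2 and CXCL3, close paralogs of CXCL1, had at most 6 counts in the 3 libraries of any condition. Whether reads that the copies share were counted or left out is not given in the sources used here.

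CXCL8 (interleukin 8), another neutrophil chemokine and a common target of RELA, had a single count in Tranilast library 2 and 0 counts in the other 14 libraries. A count of 0 allows up to 3 counts in a library, which is 0.677 to 2.41 CPM on the scale used here and covers counting error only. ICAM1 encodes an adhesion molecule that binds leukocyte integrins. It had 0 to 2 counts per library and 0 in all 3 Amphotericin B libraries, and no difference was detectable at this depth. The antisense gene AC011511.5 at the ICAM1 locus held 17 counts over all libraries, against 9 on ICAM1.

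**Figure D4:**
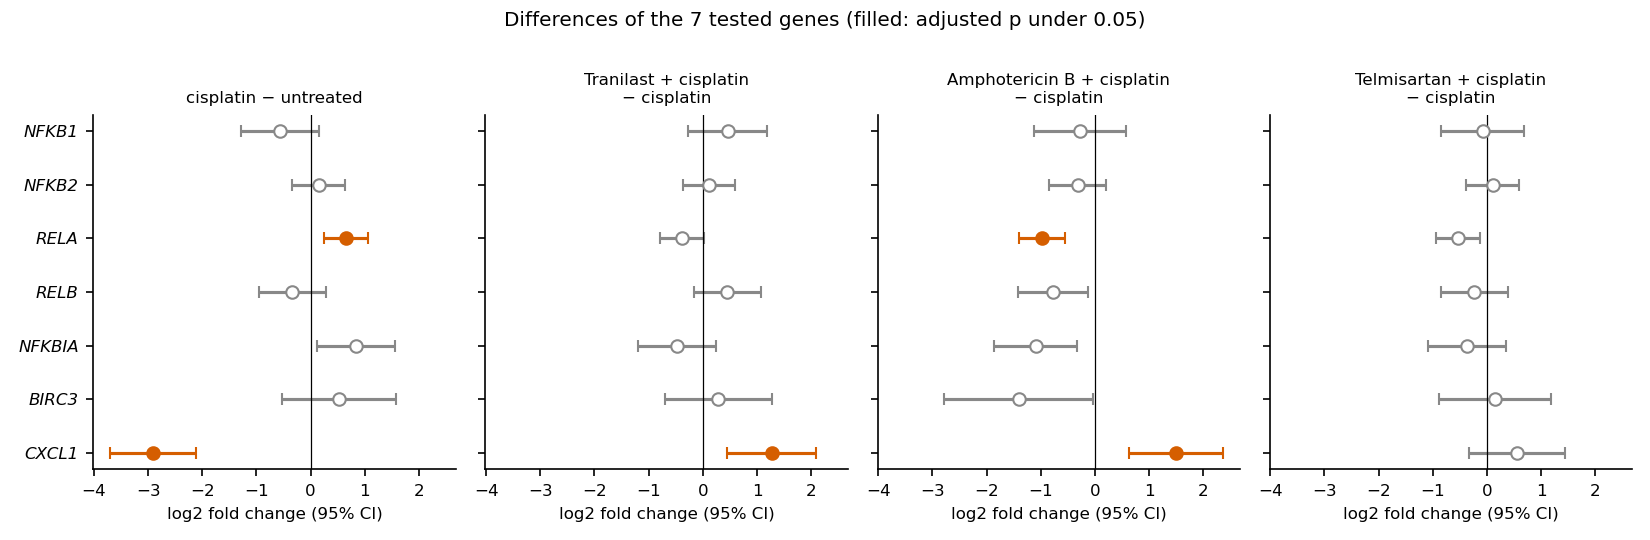
Log2 fold change (x axis) with its 95% confidence interval for the 7 tested genes (rows) in 4 comparisons (panels). Filled orange points have an adjusted p under 0.05 (edgeR), which are RELA and CXCL1 with cisplatin and with Amphotericin B, and CXCL1 with Tranilast.

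Counted together, cisplatin changed 2 of the 7 tested genes against untreated cells, RELA upward and CXCL1 downward, where 44.7% of all genes tested passed the same threshold. Relative to cisplatin alone, Tranilast changed 1 of 7 (background 22.2%) and Amphotericin B 2 of 7 (background 13.2%). Telmisartan changed 0 of 7 (background 0%) by edgeR's quasi-likelihood test, by its likelihood ratio test and by DESeq2. In that comparison 1 of the 7, RELA, had an unadjusted p under 0.05 (log2 fold change -0.54). Relative to untreated cells, 1 of 7 passed with Tranilast (8.1%), 2 with Amphotericin B (40.9%) and 1 with Telmisartan (28.7%). Between the drugs, Tranilast and Amphotericin B differed in 3 of 7 genes, RELA, RELB and BIRC3, all higher with Tranilast, against 36% of all genes. The difference of RELA was 0.59 (adjusted p = 0.0288), and it was lost with DESeq2, with RLE factors, with the mitochondrial share as a covariate (RELA 0.014), without any 1 of the Tranilast libraries and without Amphotericin B library 3. Tranilast and Telmisartan differed in 0 of 7 (2.34%), with 1 unadjusted p under 0.05, and Telmisartan and Amphotericin B in 0 of 7 (0%), with 3. Neither count rose above 0 with DESeq2 or the likelihood ratio test. The genes are too few for these shares to be set apart from those of all genes. The median log2 difference of the 7 genes was 0.14 with cisplatin (all genes -0.015). Against cisplatin alone it was 0.29 with Tranilast (all genes 0.023), -0.77 with Amphotericin B (all genes -0.035) and -0.081 with Telmisartan (all genes 0.0023).

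Among 77 further genes of the pathway, 74 were in the files and 40 were tested. Cisplatin changed 17 of these 40 (42.5%, against 44.7% of all genes), with 6 higher and 11 lower. Of the 5 other IκB proteins, 2 rose and none fell. NFKBIB, which encodes IκBβ, rose by 1.70 (adjusted p = 8.14e-06, edgeR), from 53.2 to 63.3 CPM in untreated libraries to 158 to 236 CPM. NFKBIZ, an atypical nuclear IκB protein, rose by 3.83 (adjusted p = 0.000151) from at most 0.76 CPM to between 3.97 and 14.0 CPM. It had 1 to 25 counts per library. The untreated values did not exceed the level of 3 counts (0.764 to 0.956 CPM there), so the size of this rise is uncertain. Among the 11 tested kinases and their partners, IRAK1 rose (0.47) while TAB2 (-0.95), MAP3K14 (-0.94) and MAP3K7, which encodes TAK1 (-0.51), fell. Of the 8 adaptors and ubiquitin ligases, TRAF3 (-1.61), XIAP (-1.04) and RBCK1, a subunit of the linear ubiquitin ligase (-0.87), fell. The receptor TNFRSF1A (-0.96) and the only tested ligand, TNFSF10 (TRAIL, -1.56), fell. In the list of negative feedback, which also holds TRAF3, TNIP1 (-0.77) and the deubiquitinase CYLD (-0.95) fell and TNIP2 rose (0.92). Of the 4 other tested survival targets, GADD45B (1.23) and SOD2 (1.21) rose and CFLAR, which encodes the caspase 8 inhibitor FLIP (-0.58), fell. Of the further chemokines and cytokines 1 of 10 in the files was tested, and 11 genes of these lists had 0 counts in every library, among them TNF, IL6 and SELE.

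Tranilast changed 7 of the 40 genes relative to cisplatin alone (17.5%, against 22.2% of all genes). NFKBIB (-0.91, adjusted p = 0.00429, edgeR), NFKBIZ (-1.86), GADD45B (-1.34) and SOD2 (-0.79) were lower, and TRAF3 (1.31, adjusted p = 0.00429), RBCK1 (0.73) and CFLAR (0.65) were higher. In the NFKBIB comparison the 3 Tranilast libraries held 96.4 to 106 CPM, below all cisplatin libraries. Their differences between cisplatin alone and untreated cells are those given above, and both comparisons use the same cisplatin libraries. Amphotericin B changed 6 of the 40 (15%, against 13.2%). NFKBIB (-1.05, adjusted p = 0.00495), REL, which encodes the fifth Rel subunit (-1.37), MAP3K7 (-0.94), TAB2 (-1.12) and TNFRSF10B, a TRAIL receptor (-1.67), were lower, whereas GADD45B was higher (1.74, adjusted p = 0.0125). GADD45B held 58.5 to 89.4 CPM in the Amphotericin B libraries, 42.5 and 48.5 CPM in Telmisartan libraries 2 and 1, and at most 30.2 CPM in all others, where the highest was cisplatin library 1. Telmisartan changed 0 of the 40 by edgeR and its likelihood ratio test and 1 by DESeq2. Without cisplatin library 1 the count for Amphotericin B was 19, and without cisplatin library 2 it was 1.

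**Figure D5:**
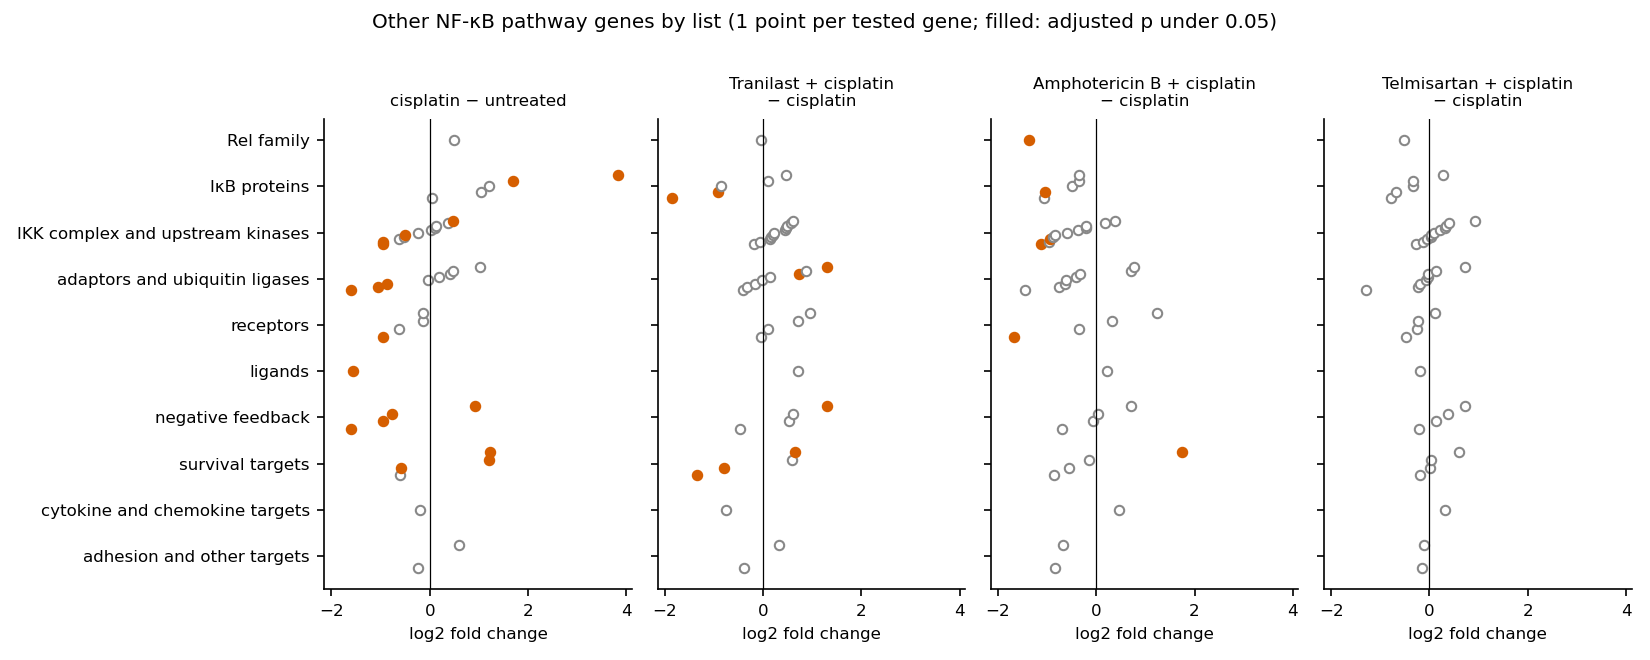
Log2 fold change (x axis) of the 40 tested pathway genes outside the set of 10, by list (rows) in 4 comparisons (panels), 1 point per gene and list, with TRAF3 in 2 lists. Filled orange points have an adjusted p under 0.05 (edgeR), 17 genes with cisplatin, 7 with Tranilast, 6 with Amphotericin B and 0 with Telmisartan.

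For the 3 tested genes with the widest range of condition means, the genes with the most similar profile over the 15 libraries were sought. The measure was the root mean square difference of log2 CPM, each profile less its own mean. Nearest to CXCL1 were NFIA (0.27), PSD3 (0.30) and NUP210 (0.32). NFIA, which encodes a nuclear factor I protein, had a mean log2 CPM of 6.06 in the untreated libraries, 3.59 after cisplatin alone and 4.22 to 5.06 after the drug combinations. Nearest to RELB were the entry ENSG00000005955, which the annotation used here does not name (0.13), FOXO3 (0.13), a forkhead transcription factor, and DCAF16 (0.16). BIRC3, with its low counts, had no close neighbour, and the nearest were FBXL12 (0.42), CEP97 (0.44) and LMTK3 (0.44). These likenesses are descriptions over libraries that share conditions and depth.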

How the data were processed

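The authors deposited raw read counts per Ensembl gene for each of the 15 libraries, as whole numbers without normalization. Per the labels, RNA was made into QuantSeq 3′ libraries and sequenced in single-end mode, and the submitters' processing notes name STAR 2.3.0, HTSeq and the build hg19. The annotation and the use of the strand are not given in the sources used here. Gene names came from GENCODE 29, which holds 45776 of the 47634 identifiers. Since that annotation is on another build, no gene positions are given. The promoter windows are from RefSeq on GRCh38.p14.

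Counts were analysed with edgeR 4.0.16 in R 4.3.3. The filterByExpr function kept 11113 genes, TMM factors were estimated, and all 15 libraries entered 1 quasi-likelihood fit on the condition. Benjamini-Hochberg adjustment was applied per comparison, with a threshold of 0.05. Standard errors are |log2 fold change| divided by the square root of the F statistic, and confidence intervals (95%) use the degrees of freedom of the fit. Log2 CPM used a prior count of 2. Tables and figures were made with Python 3.11.15, pandas 2.3.3 and matplotlib 3.10.9, and the fit was tested on simulated data. Replicates are called biological in the labels, and p-values measure only the spread between these libraries. No pair of libraries differed by as little as sampling noise.

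The genes, the lists and the tests were chosen with earlier results of these data known, so that no list is independent evidence of its direction. In each of 4 comparisons, the text names from every list 2 genes past the threshold, those of smallest adjusted p. In addition, MAP3K7, MAP3K14, XIAP, TNIP1, CYLD and CFLAR for cisplatin against untreated cells and GADD45B for Tranilast against cisplatin were named after their values were seen. Alternatives were DESeq2 1.42.0, edgeR's likelihood ratio test, RLE factors, a CPM filter (above 1 in 3 libraries), library size only, no filter beyond 1 count, only the 6 libraries of a comparison, the replicate number as a block, and each library left out in turn. After the data had been seen, 3 were added: the mitochondrial ribosomal RNA share as a covariate, mitochondrial genes left out, and 3 libraries left out together.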

Additional observations from a re-analysis of the deposited data

How the results depend on the processing

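In the replicate block fit the number of the 7 genes past the threshold was the same as without it in all 10 comparisons, 2 for cisplatin against untreated cells, for example. The numbers are not shown to pair the libraries, since the correlation of same-numbered deviations was over 0.1 for every pair in none of the comparisons (from -0.235 to 0.631). Of 312 results of the 12 calls under other settings, 280 kept their side of the threshold, 30 lost it with the same direction and 2 changed sign. Those were RELB with the mitochondrial share as a covariate, at 0.46 for Amphotericin B against untreated cells and -0.27 for Tranilast against Amphotericin B. The 312 include fits without a library of a condition that is not compared, which reach a call only through the shared fit. For BIRC3, Tranilast against Amphotericin B, the call was lost in all 6 fits that left out a compared library and kept in the other 9.

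Counts of the 7 genes moved as follows, with causes not tested unless stated. For cisplatin against untreated cells 2 became 1 with library size only, 4 with 3 libraries left out together, and 3, NFKBIA added, with DESeq2, the likelihood ratio test, RLE factors, no filter and the mitochondrial covariate. Without filter, Amphotericin B against cisplatin gave 4 in place of 2 (3 with the likelihood ratio test), Amphotericin B against untreated cells 3 in place of 2, Tranilast against Amphotericin B 4 in place of 3 (2 with DESeq2), and the comparisons of Telmisartan with Tranilast and with Amphotericin B gave 1 each in place of 0. With only the 6 libraries compared, a fit with fewer libraries, Tranilast and Amphotericin B against cisplatin gave 0 each and Tranilast against untreated cells 4. Library size only gave 4 for Amphotericin B against untreated cells and 6 for Tranilast against Amphotericin B, where RLE factors gave 1. Library size only shifted the median of all genes to between -0.75 and 0.81, so that its differences are relative to that shift. With the mitochondrial covariate the counts were 3 for Tranilast against cisplatin, 1 for Amphotericin B against cisplatin, 3 for Telmisartan against untreated cells, 0 for Tranilast against Amphotericin B and 1 for Tranilast against Telmisartan. Without the 3 high-share libraries they were 3 for Tranilast against cisplatin, 4 for Amphotericin B against cisplatin, 3 each for Telmisartan and Amphotericin B against untreated cells, 5 for Tranilast against Amphotericin B and 5 for Telmisartan against Amphotericin B. This setting leaves 1 Telmisartan library, which is assumed to vary like the others.

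With libraries left out in turn, the counts ranged from 1 to 3 for cisplatin against untreated cells, 0 to 3 for Tranilast, 0 to 4 for Amphotericin B and 0 to 2 for Telmisartan against cisplatin, 1 to 3 for Amphotericin B and 1 to 3 for Telmisartan against untreated cells, 1 to 4 for Tranilast against Amphotericin B and 0 to 2 for Tranilast against Telmisartan. Of the 40 wider pathway genes they ranged from 10 to 19 for cisplatin against untreated cells, 3 to 15 for Tranilast, 1 to 19 for Amphotericin B and 0 to 2 for Telmisartan against cisplatin. Without the 3 libraries the wider counts were 14, 24 and 2 for these drugs. For Amphotericin B, only the 6 libraries and the covariate gave 1 each, and for Telmisartan DESeq2 and the covariate gave 1 each. The depth of 1510620 to 3517041 counts limits TNFAIP3, CXCL8 and ICAM1, which were tested only under looser filters and passed in no comparison there.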
